A study of Danio rerio with 16 samples.

Results

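Collagen-rich nuclei of the adult zebrafish (Danio rerio) heart were taken from 4 single-nucleus RNA libraries by a rule on their own counts. A nucleus belonged to them when it had at least 500 UMIs (unique molecular identifiers, each standing for 1 captured RNA molecule), at most 5% of them mitochondrial, and at least 4 UMIs over the collagen genes *col12a1a*, *col12a1b*, *col11a1a*, *col11a1b* and *col5a1* from at least 2 of these genes. It was also required to have at most 1 UMI over *csf1ra* and *mrc1b* (macrophage genes), *slc4a1a* and *rhag* (erythrocyte genes) and *flt1* (an endothelial receptor). The rule took 1016 of 68320 barcodes, and 37644 barcodes passed the UMI and mitochondrial limits alone. The groups were hearts of fish homozygous for the pt38a allele of *cited4a* (called mutant here) at 3 days post amputation (3 dpa), when roughly 20% of the ventricle had been cut off, uninjured hearts of the same mutants (UI), wild-type (WT) hearts at 3 dpa, and uninjured WT hearts. Only the allele, the tissue and the injury are stated for these groups; what pt38a changes, the number and age of the fish and any pooling of hearts are not stated in the sources used here, beyond that the fish were adult. Hearts were flash-frozen before nuclei were isolated with a kit, and libraries were made with droplet chemistry that reads RNA at its 3 prime end.

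Fibroblasts and epicardium-derived cells build the matrix of the heart. Fibrillar collagen is made as procollagen chains that are hydroxylated, chaperoned and folded in the endoplasmic reticulum, trimmed outside the cell and crosslinked by lysyl oxidases. Collagens V and XI start and limit the width of collagen I fibrils, and collagen XII sits along the fibril surface. In the zebrafish heart, epicardial and fibroblast cells near an amputation switch on matrix genes, and the matrix is later removed as muscle grows back.

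The labels list 4 samples a group, but the counts of each group came as 1 matrix whose barcodes carry no sample, so each group is 1 sample, no test was made and no p-value is given. Intervals are exact 95% intervals (Poisson for levels, Clopper-Pearson for shares, conditional binomial for ratios) and cover counting error only. The libraries held 8309 to 35484 barcodes and 12984219 to 24511414 UMIs, with medians of 462 to 1721 UMIs a barcode. The mutant and WT libraries were made with gene tables of 27758 and 25432 genes and shared 0 barcodes, so genotype cannot be told apart from the table and the barcode set. The mutant pair shared 133 barcodes and the WT pair 136, and 0 of these were collagen-rich in both libraries of a pair. Libraries are called by their labels throughout, because the collagen measures, the cell cycle shares and, in cluster 8, the cardiomyocyte markers ran in opposite directions in the mutant and WT pairs; whether the labels of the mutant pair are right was not tested. The count of *cited4a* RNA cannot check the genotype, since what pt38a does to its RNA is not given. Among collagen-rich nuclei *cited4a* gave 125 CPM (UMIs of a gene scaled to a common total of a pool; 3.17 to 698, 1 UMI) in mutant 3 dpa, 22.7 (11.3 to 40.6, 11 UMIs) in mutant UI, 28.1 (19.9 to 38.5, 38 UMIs) in WT 3 dpa and 103 (33.3 to 239, 5 UMIs) in WT UI. All other barcodes gave 364, 31.0, 54.6 and 154 CPM in the same order of libraries.

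Collagen-rich nuclei were common in 2 libraries and rare in the others. They numbered 5 of 9140 filtered barcodes in mutant 3 dpa, 346 of 9932 in mutant UI, 645 of 10394 in WT 3 dpa and 20 of 8178 in WT UI. These are shares of 0.0547% (0.0178 to 0.128), 3.48% (3.13 to 3.86), 6.21% (5.75 to 6.69) and 0.245% (0.149 to 0.377). The log2 ratio of the shares, labelled 3 dpa over UI, was -5.99 in the mutant pair and 4.67 in the WT pair. Mutant over WT gave -6.83 between the libraries labelled 3 dpa and 3.83 between those labelled UI. The order of libraries was the same with depth held equal: with every barcode thinned to 500 UMIs and the collagen condition lowered to 2 UMIs, the shares were 0.113%, 5.23%, 10.3% and 0.371%, after 1177, 1225, 249 and 90 shallower barcodes were left out. Collagen-rich nuclei had a median of 1519, 1248.5, 1479 and 1131.5 UMIs, against 950, 966.5, 1023 and 1726 in the other filtered barcodes. With so few nuclei in mutant 3 dpa, that pool held 7983 UMIs in all, against 484639, 1353476 and 48749 UMIs in the pools labelled mutant UI, WT 3 dpa and WT UI, and its gene levels are printed without being compared gene by gene.

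**Figure D1:**
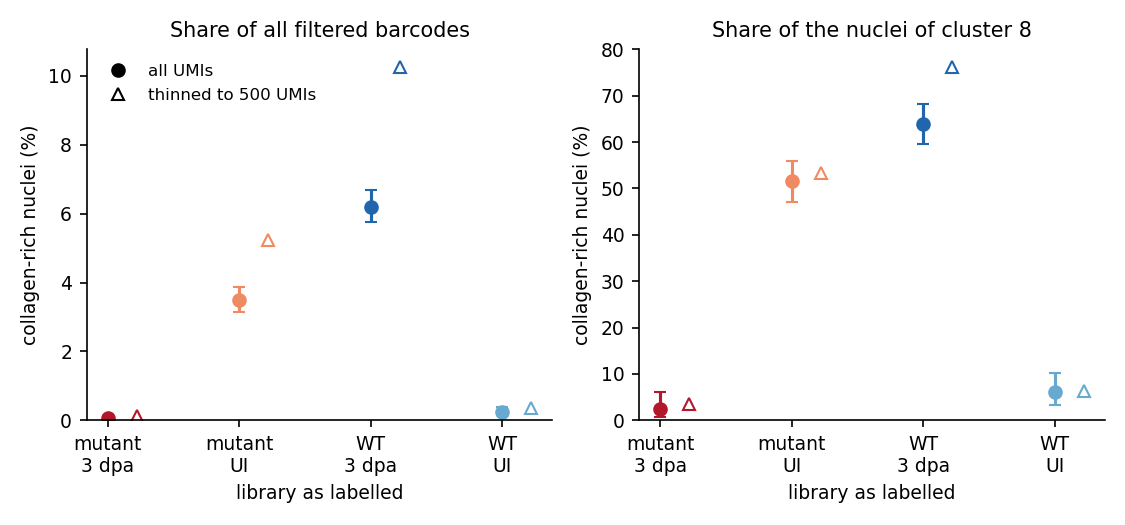
Share of collagen-rich nuclei (%) in each library as labelled, among all filtered barcodes (left) and among the nuclei of cluster 8 (right). Circles are shares over all UMIs with exact 95% intervals and open triangles the shares after thinning to 500 UMIs; the libraries labelled mutant UI and WT 3 dpa stand at 3.48% and 6.21% on the left, and the others stay at or under 0.245% by all UMIs.

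The name of injury-activated fibroblasts was checked against clusters made from all filtered barcodes without the 10 genes of the rule. Collagen-rich nuclei gathered in 1 cluster, number 8, which was led by *tbx18* and *wt1a* (transcription factors of the epicardium), *edil3a* (a secreted adhesion protein), *ncam1a* (a cell adhesion molecule), *colec12* (a scavenger receptor), *flnb* (an actin crosslinker), *bnc2* (a zinc-finger factor), *fn1a* (fibronectin) and *ckba* (creatine kinase). This cluster held 4 of 5, 266 of 346, 321 of 645 and 13 of 20 collagen-rich nuclei in the order mutant 3 dpa, mutant UI, WT 3 dpa and WT UI, which is 76.9% (72.1 to 81.2) of those labelled mutant UI and 49.8% (45.8 to 53.7) of those labelled WT 3 dpa. As for the word injury, their share was higher in the library labelled 3 dpa in the WT pair and lower in the mutant pair. They are therefore called collagen-rich nuclei here, and values are also given for those in cluster 8.

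Cluster 8 itself was present in all libraries, with 164, 516, 502 and 214 nuclei, and the collagen state divided it. No batch correction was made. Some other clusters were spread over all libraries, such as cluster 9 with 228, 316, 382 and 337 nuclei. Others came almost wholly from 1 library. In the same order of libraries, cluster 0 had 6326, 102, 80 and 20 nuclei and cluster 1 had 95, 5468, 99 and 5. The part of such library differences in the counts of cluster 8 was not tested. Collagen-rich nuclei made up 2.44% (0.668 to 6.13) of cluster 8 in mutant 3 dpa, 51.6% (47.1 to 55.9) in mutant UI, 63.9% (59.6 to 68.2) in WT 3 dpa and 6.07% (3.27 to 10.2) in WT UI. Thinned to 500 UMIs these shares were 3.45%, 53.4%, 76.2% and 6.22%. A further 31 nuclei in mutant UI and 103 in WT 3 dpa met the collagen condition but had at least 2 UMIs over the excluded genes, and with them 57.6% (53.2 to 61.9) and 84.5% (81.0 to 87.5) of cluster 8 reached the collagen threshold. Those barred nuclei are kept out of the comparisons within cluster 8 given later.

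The other collagen-rich nuclei were spread over several clusters. Of the collagen-rich nuclei in WT 3 dpa, 125 were in cluster 5 (2582 nuclei, led by *wu:fi09b08* and *zgc:158463*), 62 in cluster 3 (1591 nuclei, led by *kcnc4* and *adam12*) and 28 in cluster 16 (134 nuclei). Of those labelled mutant UI, 39 were in cluster 1, which had 5468 nuclei. The summed level of the 5 collagen genes was 19943 CPM (19685 to 20204) in cluster 8 in WT 3 dpa, 2624 in cluster 16, 1482 in cluster 5 and 1350 in cluster 3. In cluster 10, led by the erythroid genes *hbba2* and *alas2*, where these collagens are not expected, it was 851 CPM (795 to 908). For the library labelled mutant UI the same sums were 9187 CPM (8957 to 9421) in cluster 8 and 743 CPM (619 to 883) in cluster 10. After thinning to 500 UMIs and with the lowered condition, 4.25% of cluster 10 in WT 3 dpa and 2.29% in mutant UI would have been taken, against 13.4% of cluster 5 and 76.2% of cluster 8 in WT 3 dpa. The part of free collagen RNA in the nuclei outside cluster 8 was not tested.

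The share of nuclei in cluster 8 rose with the collagen UMIs of a nucleus. The rule used these same counts, so the values are a description. Depth differed too. At 4, at 8 to 15 and at 16 or more collagen UMIs, the median was 1138, 1161 and 2038 UMIs in WT 3 dpa. In mutant UI it was 875, 1159.5 and 1724.5 UMIs. The part of depth was not tested. Among nuclei in WT 3 dpa that met the limits on excluded genes, 10.2% of those with 4 UMIs over the collagen genes from at least 2 genes were in cluster 8, 58.3% of those with 8 to 15 and 93.6% of those with 16 or more. In the library labelled mutant UI these shares were 42.9%, 88.8% and 100%. Just inside the threshold, with exactly 4 UMIs, stood 2, 63, 166 and 11 nuclei in the order mutant 3 dpa, mutant UI, WT 3 dpa and WT UI, and just outside it, with 3 UMIs, stood 5, 157, 364 and 24. Summed RNA of 22 cardiomyocyte marker genes went the other way, with 82375 CPM at exactly 4 UMIs and 25580 CPM at 16 or more in WT 3 dpa, and 49687 and 13823 CPM in mutant UI.

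**Figure D2:**
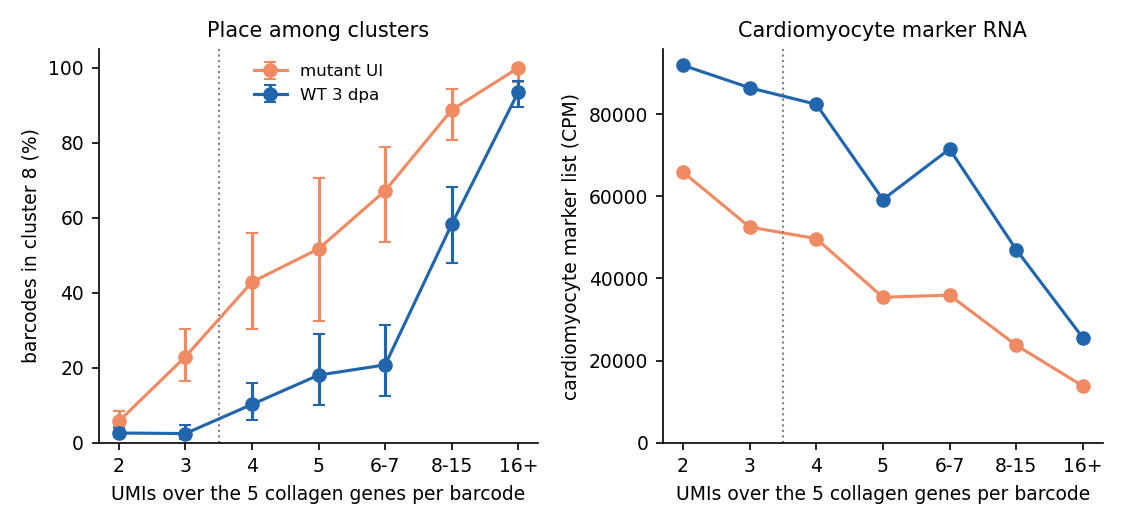
Filtered barcodes in mutant UI and WT 3 dpa, grouped by their UMIs over the 5 collagen genes (x axis; the dotted line marks the threshold of the rule). Left, share of barcodes in cluster 8 (%) with exact 95% intervals; right, summed level of the cardiomyocyte marker list (CPM, linear axis). At 16 or more UMIs, 100% of nuclei in mutant UI and 93.6% in WT 3 dpa were in cluster 8.

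The genes of the rule are described first, without reading anything from their height. Among collagen-rich nuclei *col12a1b* had 1378 CPM in mutant 3 dpa, 3708 in mutant UI, 4582 in WT 3 dpa and 144 in WT UI. The partner gene *col12a1a* had 752, 2152, 3079 and 1026 CPM in that order, *col5a1* had 1879, 4170, 3767 and 841 CPM, *col11a1b* had 125, 848, 901 and 0 CPM, and *col11a1a* had 0, 396, 513 and 41.0 CPM. The median nucleus had 6, 9, 8 and 4 UMIs over the 5 genes, and the highest had 11, 117, 316 and 9. In the same order of libraries, collagen-rich nuclei held 7.19%, 27.2%, 46.0% and 3.45% of all *col12a1b* UMIs of their libraries. For ratios a gene with 0 UMIs was set to a floor of 3 UMIs, which is 376 CPM in the pool of mutant 3 dpa and 61.5 CPM in that of WT UI. The exact 95% upper limits of a count of 0 in these pools are higher, at 462 and 75.7 CPM.

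Beside the genes that chose them, collagen-rich nuclei were compared with all other barcodes of their own library, for which a gene counts as higher or lower at 2-fold or more and as measured with at least 10 expected UMIs in each pool at the rate of both pools together. Over all measured genes in mutant UI (7228), 8.18% were higher and 11.8% lower, with a median log2 ratio of -0.22. Over those labelled WT 3 dpa (11261), 6.30% were higher and 3.40% lower, with a median of 0.01. The list counts that follow stand against these shares.

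Structural collagens were higher together. Of 22 fibrillar and fibril-associated collagens listed (the rule genes left out), 7 were measured in mutant UI and 7 of them were higher, while in WT 3 dpa 11 were measured, 7 were higher and 0 lower. The 7 were the collagen I chains *col1a1a*, *col1a1b* and *col1a2*, the collagen V chains *col5a2a* and *col5a3a*, *col27a1b* and *col16a1*. Summed over the list, collagen-rich nuclei had 7149.6 against 1493 CPM (log2 ratio 2.26, 2.21 to 2.31) in mutant UI and 6808 against 1376 CPM (log2 ratio 2.31, 2.27 to 2.34) in WT 3 dpa. For *col1a1b*, levels in collagen-rich nuclei were 1253 CPM in mutant 3 dpa, 1801 in mutant UI, 1728 in WT 3 dpa and 410.3 in WT UI. The level in WT UI, a pool in which 1 nucleus gave 39.7% of the UMIs, was the low one for this chain. The 10 UMIs behind the level of mutant 3 dpa (600.7 to 2304 CPM) do not set it apart from mutant UI and WT 3 dpa. Beside the other barcodes, *col1a1b* had 1801 against 459 CPM in the library labelled mutant UI (log2 ratio 1.97, 1.87 to 2.07). In that labelled WT 3 dpa it had 1728 against 338 CPM (2.35, 2.28 to 2.42). Its partner *col1a2* had 1253 CPM in mutant 3 dpa, 1618 in mutant UI, 1404 in WT 3 dpa and 267 in WT UI. The collagen V chain *col5a2a* had 251 CPM in mutant 3 dpa, 1089 in mutant UI, 1281 in WT 3 dpa and 349 in WT UI, and its log2 ratios over other barcodes were 2.87 in mutant UI and 2.74 in WT 3 dpa. Of the network-forming and basement membrane collagens, *col6a3* (a chain of the beaded collagen VI filaments) had 1316 against 197 CPM in the library labelled mutant UI (log2 ratio 2.74, 2.62 to 2.86) and 1408 against 189 CPM in that labelled WT 3 dpa (2.90, 2.82 to 2.98), while *col18a1a*, the source of endostatin, gave log2 ratios of 3.21 in mutant UI and 1.96 in WT 3 dpa. Among 7 measured other collagens in mutant UI 5 were higher, and among 14 in WT 3 dpa 5 were higher and 1 lower.

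The enzymes and chaperones that make collagen went with the chains. Of 26 measured assembly and crosslinking genes in mutant UI 19 were higher and 0 lower, and of 35 in WT 3 dpa 25 were higher and 0 lower, with median log2 ratios of 1.89 and 1.73. Inside the cell, *plod2*, which hydroxylates lysines for crosslinks, had 879 against 99.9 CPM in the library labelled mutant UI (log2 ratio 3.14, 2.98 to 3.29) and 850.4 against 119.5 CPM in that labelled WT 3 dpa (2.83, 2.73 to 2.93). The prolyl 3-hydroxylase *p3h2* gave log2 ratios of 3.58 in mutant UI and 2.90 in WT 3 dpa, and *serpinh1b* (the collagen chaperone Hsp47) gave 2.55 in mutant UI and 3.09 in WT 3 dpa. Outside the cell, *bmp1a*, which trims procollagen ends, gave 2.52 in mutant UI and 1.88 in WT 3 dpa. Levels of the lysyl oxidase gene *loxl3b* in collagen-rich nuclei were 376 CPM in mutant 3 dpa, 1110.1 in mutant UI, 1144 in WT 3 dpa and 389.8 in WT UI. It was thus higher in mutant UI and WT 3 dpa than in WT UI, a pool in which 1 nucleus gave 39.7% of the UMIs. The level of *loxl3b* in mutant 3 dpa rests on 3 UMIs (77.5 to 1098 CPM). Its relative *loxl2a* had 125 CPM in mutant 3 dpa (1 UMI, 3.17 to 698), 61.9 in mutant UI (41.8 to 88.4), 409 in WT 3 dpa (376 to 445) and 205 in WT UI (98.4 to 377). For this gene mutant UI was the low one of the 3 larger pools.

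Matrix glycoproteins and proteoglycans were mostly higher or within 2-fold. Of 43 measured in mutant UI 20 were higher and 1 lower, and of 62 in WT 3 dpa 28 were higher and 0 lower. The fibronectin gene *fn1a*, whose protein forms the early matrix of a healing zebrafish ventricle, had 376 CPM in mutant 3 dpa, 2288 in mutant UI, 1812 in WT 3 dpa and 0 in WT UI. Its duplicate *fn1b* had 1503 CPM in mutant 3 dpa, 1890.1 in mutant UI, 1122 in WT 3 dpa and 595 in WT UI, so *fn1b* had UMIs in all 4 pools while *fn1a* had 0 in that of WT UI. The secreted adhesion gene *edil3a* had 2575 against 193 CPM in the library labelled mutant UI (log2 ratio 3.74, 3.65 to 3.83) and 1078 against 119.5 CPM in that labelled WT 3 dpa (3.17, 3.08 to 3.27). Periostin (*postnb*) had log2 ratios of 2.25 in mutant UI and 2.77 in WT 3 dpa, the small proteoglycan decorin (*dcn*) 2.49 in mutant UI and 2.37 in WT 3 dpa, and the hyaluronan synthase *has1* 3.26 in mutant UI and 3.03 in WT 3 dpa. Tenascin C (*tnc*), a matrix protein of injured tissue, had 0 CPM in mutant 3 dpa, 28.9 in mutant UI, 307 in WT 3 dpa and 0 in WT UI. The level of *tnc* was thus lower in mutant UI than in WT 3 dpa. The heparan sulphate proteoglycan *agrn* gave log2 ratios of 0.55 in mutant UI and 0.01 in WT 3 dpa.

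Matrix proteases and inhibitors were higher in 13 of 27 measured genes in mutant UI, with 2 lower, and in 14 of 35 in WT 3 dpa, with 0 lower. The secreted serine protease gene *htra1b* had 609 against 130.0 CPM in the library labelled mutant UI (log2 ratio 2.23, 2.05 to 2.40) and 321 against 93.7 CPM in that labelled WT 3 dpa (1.78, 1.62 to 1.93). The gelatinase *mmp2* gave log2 ratios of 1.66 in mutant UI and 1.42 in WT 3 dpa from levels of 132 CPM in mutant UI and 48.8 CPM in WT 3 dpa.

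Epicardial and fibroblast identity genes were higher in 14 of 31 measured in mutant UI, with 1 lower, and in 18 of 38 in WT 3 dpa, with 0 lower. The epicardial factor *tbx18* had 400.3 against 57.6 CPM in the library labelled mutant UI (log2 ratio 2.80, 2.57 to 3.02) and 229 against 28.7 CPM in that labelled WT 3 dpa (3.00, 2.79 to 3.20). For *wt1a*, another epicardial factor, levels in collagen-rich nuclei were 626 CPM in mutant 3 dpa, 287 in mutant UI, 171 in WT 3 dpa and 205 in WT UI. The interval for WT UI (98.4 to 377, 10 UMIs) holds the levels of both mutant UI and WT 3 dpa. That for mutant 3 dpa (203 to 1462, 5 UMIs) holds the level of mutant UI and lies above that of WT 3 dpa. The libraries can therefore not all be put in order. The retinoic acid enzyme *aldh1a2* was less set apart, with log2 ratios of 1.50 in mutant UI and 1.09 in WT 3 dpa, and the mural and fibroblast receptor *pdgfrb* gave 2.01 in mutant UI and 1.94 in WT 3 dpa. The adhesion gene *cdh11*, known from fibroblasts, had 0 CPM in mutant 3 dpa, 237 in mutant UI, 146 in WT 3 dpa and 0 in WT UI. The epicardial factor *tcf21* was at 16.5 CPM in mutant UI and 8.13 CPM in WT 3 dpa, too few UMIs for a ratio by the measuring rule.

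Signalling genes were divided. Of 51 measured growth factors, ligands and receptors in mutant UI 13 were higher and 10 lower, and of 78 in WT 3 dpa 23 were higher and 4 lower. Those higher in both libraries included the receptor tyrosine kinase *ror1* (3.74 in mutant UI and 2.35 in WT 3 dpa), the EGF receptor *egfra* (2.59 in mutant UI and 2.18 in WT 3 dpa), the guidance receptor *robo1* (2.77 in mutant UI and 1.72 in WT 3 dpa), the Wnt potentiator *rspo3* (3.26 in mutant UI and 2.63 in WT 3 dpa) and the cardiomyocyte mitogen *nrg1* (2.51 in mutant UI and 1.78 in WT 3 dpa). Levels of *nrg1* were low, at 0 CPM in mutant 3 dpa, 132 in mutant UI, 117 in WT 3 dpa and 0 in WT UI. In the TGF-beta family 3 of 29 measured genes in mutant UI were higher and 2 lower, and 3 of 43 in WT 3 dpa were higher and 1 lower, shares near those of all genes on the higher side. Integrins and adhesion genes were higher in 5 of 29 measured in mutant UI and 7 of 41 in WT 3 dpa, with the tenascin and fibronectin receptor chain *itga9* at log2 ratios of 1.77 in mutant UI and 1.16 in WT 3 dpa.

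The contractile and cytoskeletal list of myofibroblasts was higher in 8 of 51 measured genes in mutant UI, with 5 lower, and in 14 of 62 in WT 3 dpa, with 2 lower. The LIM protein gene *fhl3a* gave log2 ratios of 2.55 in mutant UI and 2.12 in WT 3 dpa, and the tropomyosin gene *tpm4b* gave 2.26 in mutant UI and 2.61 in WT 3 dpa. For the YAP partner *tead1b* they were 1.72 in mutant UI and 1.18 in WT 3 dpa. Palladin (*palld*), a scaffold of stress fibres, was lower by less than 2-fold, at -0.61 in mutant UI and -0.58 in WT 3 dpa. Retinoic acid and hypoxia genes were higher in 4 of 25 in mutant UI, with 2 lower, and in 5 of 30 in WT 3 dpa, with 0 lower. The retinoic acid breakdown enzyme *cyp26b1* had 0 CPM in mutant 3 dpa, 163 in mutant UI, 206 in WT 3 dpa and 20.5 in WT UI.

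Cardiomyocyte markers were lower in collagen-rich nuclei than in the other barcodes of each library without being absent, and the lists of other cell types did not share 1 direction. The cardiomyocyte list summed to 33697 CPM in mutant 3 dpa, 26428 in mutant UI, 49308 in WT 3 dpa and 83202 in WT UI in collagen-rich nuclei, against 81709, 50958, 79279 and 118226 CPM in the other barcodes. Of its 22 genes 4, 0, 0 and 2 were at 0 in collagen-rich nuclei in that order. In the collagen-rich nuclei of cluster 8 alone it was 18907 CPM in mutant UI and 24401 in WT 3 dpa, and in those outside it 52187 CPM in mutant UI and 75970.0 CPM in WT 3 dpa. Erythrocyte markers were lower in 15 of 15 measured in mutant UI and 12 of 17 in WT 3 dpa, and macrophage markers in 14 of 17 and 5 of 18, where the rule had already removed nuclei with 2 or more UMIs over its excluded genes. In the 5 nuclei of mutant 3 dpa, by contrast, erythrocyte markers summed to 12777 against 1106 CPM (log2 ratio 3.53, 3.24 to 3.81) and macrophage markers to 1754 against 355 CPM (2.31, 1.43 to 3.05). These levels rest on 102 and 14 UMIs, in a pool in which 1 nucleus gave 33.4% of the UMIs. Their intervals do not cover differences between nuclei. Neutrophil markers had log2 ratios of 2.31 (0.99 to 3.35) in mutant 3 dpa, -0.10 (-0.28 to 0.09) in mutant UI, 0.32 (0.18 to 0.46) in WT 3 dpa and 0.47 (-0.98 to 1.59) in WT UI. Schwann or neural markers had 0.08 (-5.23 to 2.56), 0.89 (0.60 to 1.17), 0.09 (-0.10 to 0.27) and 1.07 (0.34 to 1.72) in that order. Endothelial or endocardial markers had -1.03 (-2.09 to -0.15), -0.25 (-0.36 to -0.15), -0.12 (-0.17 to -0.06) and 0.39 (0.16 to 0.62). Of the mural or smooth muscle markers 1 of 8 measured was higher and 2 lower in mutant UI, and 5 of 14 were higher and 0 lower in WT 3 dpa. Thrombocyte and lymphocyte markers had sums below those of the other barcodes in mutant UI and WT 3 dpa. The part of these cell types' RNA in the levels of collagen-rich nuclei was not tested. The part of cardiomyocyte RNA in the levels of collagen-rich nuclei was not tested. With the collagen-rich nuclei of cluster 8 alone, where that RNA was lower, the collagen list had log2 ratios over other barcodes of 2.49 in mutant UI and 3.03 in WT 3 dpa.

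**Figure D3:**
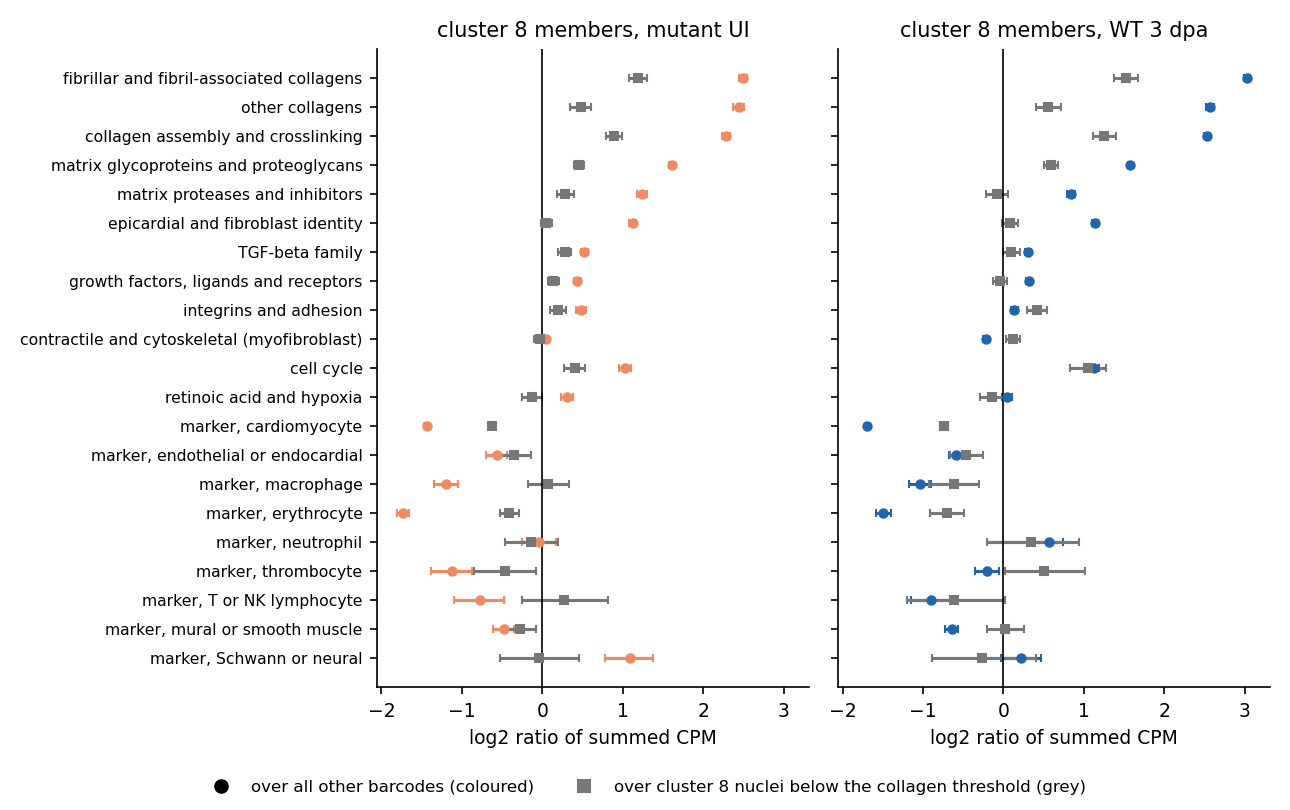
Log2 ratio of the summed CPM of each gene list for the collagen-rich nuclei of cluster 8, over all other barcodes of the library (coloured circles) and over the nuclei of cluster 8 below the collagen threshold (grey squares), in mutant UI (left) and WT 3 dpa (right). Bars are exact 95% intervals for counting error. The collagen list lies at 2.49 and 3.03 over all other barcodes, and at 1.19 and 1.52 within the cluster.

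Genes outside the lists that stood highest over the other barcodes in both libraries were chosen after their values were seen. They were led by *glis1b*, a Krüppel-like zinc-finger factor (3.74 in mutant UI and 3.28 in WT 3 dpa), *ngfb*, the nerve growth factor gene (3.23 in mutant UI and 3.48 in WT 3 dpa), *ncam1a* (4.08 in mutant UI and 3.03 in WT 3 dpa), *chst11*, a chondroitin sulphotransferase (3.70 in mutant UI and 3.00 in WT 3 dpa), and *bnc2* (3.64 in mutant UI and 2.92 in WT 3 dpa). Both *ncam1a* and *bnc2* also lead cluster 8.

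Within cluster 8, collagen-rich nuclei differed from the nuclei below the collagen threshold in collagens, their assembly genes and matrix glycoproteins more than in identity genes. These comparisons set 266 against 219 nuclei in mutant UI and 321 against 78 in WT 3 dpa, whose median depths were 1263.5 against 820 and 1633 against 960.5 UMIs. Since the groups were divided by 5 collagens of the same nuclei, the values are a description. Over all 4297 measured genes in mutant UI 6.94% were higher and 6.80% lower, and over 2051 in WT 3 dpa 14.3% were higher and 6.39% lower. The collagen-rich pool held 375109 UMIs against 224155 below the threshold in mutant UI, and 699771 against 98945 in WT 3 dpa. With genes measured at the rate of both pools together, one low in the smaller pool passes more easily. The balance of higher and lower counts, in the lists too, is therefore not a result. Fibrillar collagens were higher in 6 of 7 measured in mutant UI and 7 of 7 in WT 3 dpa, summing to 8411 against 3698 CPM (log2 ratio 1.19, 1.07 to 1.30) in mutant UI and 11248 against 3911 CPM (log2 ratio 1.52, 1.38 to 1.67) in WT 3 dpa. Assembly and crosslinking genes were higher in 13 of 29 in mutant UI and 15 of 23 in WT 3 dpa, with 0 lower in either. Matrix glycoproteins were higher in 12 of 40 with 4 lower in mutant UI, and in 17 of 30 with 1 lower in WT 3 dpa. Matrix proteases and inhibitors did not share this direction in both libraries. They summed to 5900 CPM (5656 to 6151) against 4831 (4548 to 5128) in mutant UI. In WT 3 dpa they summed to 4732 CPM (4572 to 4896) against 5013 (4581 to 5474), intervals that overlap.

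Single genes show the division. Beside the nuclei below the threshold, *col1a2* had 1842 against 906 CPM in mutant UI (log2 ratio 1.02, 0.80 to 1.26) and 2314 against 738 CPM in WT 3 dpa (1.65, 1.31 to 2.01). Fibronectin gene *fn1a* had 2759 against 789.6 CPM in mutant UI (log2 ratio 1.80, 1.57 to 2.04) and 3187 against 576 CPM in WT 3 dpa (2.47, 2.09 to 2.87), whereas its duplicate *fn1b* had 2173 against 2141 CPM in mutant UI (log2 ratio 0.02, -0.14 to 0.19) and 1842 against 2031 CPM in WT 3 dpa (-0.14, -0.36 to 0.08). The intervals of *fn1b* span 0 in both libraries while those of *fn1a* lie above 1.5. Of the epicardial factors, *tbx18* had 496 against 567 CPM in mutant UI (log2 ratio -0.19, -0.53 to 0.14) and 417 against 323 CPM in WT 3 dpa (0.37, -0.16 to 0.94). For *wt1a* the log2 ratios were -0.30 in mutant UI and 0.05 in WT 3 dpa, and for *aldh1a2* -0.13 in mutant UI and -0.18 in WT 3 dpa. Over the whole identity list 5 of 32 measured were higher and 4 lower in mutant UI, and 5 of 24 were higher and 2 lower in WT 3 dpa, with summed log2 ratios of 0.05 (-0.02 to 0.12) and 0.08 (-0.01 to 0.18).

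The genes farthest apart within cluster 8 in both libraries, chosen after their values were seen, were named in order of the smaller of their ratios. The highest was *creb3l1*, a membrane-bound transcription factor known to drive secretory and collagen genes, with 141 against 8.92 CPM in mutant UI (log2 ratio 3.99, 2.06 to 7.07) and 171 against 10.1 CPM in WT 3 dpa (4.08, 1.58 to 9.40). The sulphotransferase *chst11* came next with 536 against 71.4 CPM in mutant UI (log2 ratio 2.91, 2.17 to 3.74) and 663 against 80.9 CPM in WT 3 dpa (3.04, 2.05 to 4.26). The thrombospondin gene *thbs2b* had 120.0 against 22.3 CPM in mutant UI (log2 ratio 2.43, 1.10 to 4.12) and 344 against 20.2 CPM in WT 3 dpa (4.09, 2.22 to 7.14). The wide intervals of *creb3l1* and *thbs2b* go with 1 to 5 UMIs in the nuclei below the threshold. Both genes were measured only through their level in the collagen-rich nuclei, so their rank is a description. Further down came *runx1*, a transcription factor of blood cells, at 2.69 in mutant UI and 1.82 in WT 3 dpa. On the low side, *abi3bpb*, a matrix-binding protein gene, had 13.3 against 384 CPM in mutant UI (log2 ratio -4.85, -6.51 to -3.57) and 38.6 against 606 CPM in WT 3 dpa (-3.97, -4.69 to -3.30). It was followed by *wnt5b*, a Wnt ligand (-2.08 in mutant UI and -1.97 in WT 3 dpa), the keratin *krt4* (-2.05 in mutant UI and -1.62 in WT 3 dpa) and several ribosomal protein genes, among them *rplp2* and *rpsa*. In the libraries as a whole *abi3bpb* did not set collagen-rich nuclei apart in one direction, with log2 ratios over all other barcodes of -1.08 in mutant UI and 0.35 in WT 3 dpa. Tenascin C (*tnc*) had 37.3 against 26.8 CPM in mutant UI (log2 ratio 0.48, -0.99 to 2.15). In WT 3 dpa it had 574 against 30.3 CPM (4.24, 2.69 to 6.53). In mutant UI it had too few UMIs to count as measured. In WT 3 dpa it was measured only through its level in the collagen-rich nuclei, so the difference between the libraries is a description.

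**Figure D4:**
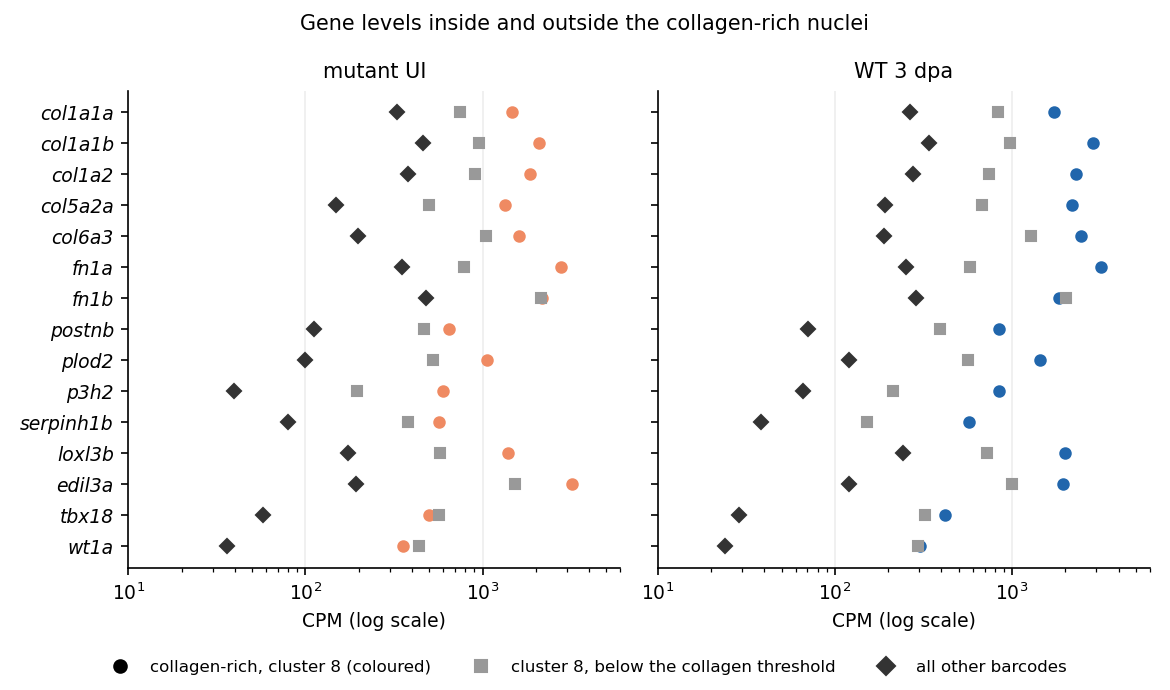
Levels (CPM, log axis) of 15 genes in collagen-rich nuclei of cluster 8 (coloured circles), nuclei of cluster 8 below the collagen threshold (grey squares) and all other barcodes (black diamonds), in mutant UI (left) and WT 3 dpa (right). Collagens, *fn1a* and the collagen enzymes step up from diamond to square to circle, while *fn1b*, *tbx18* and *wt1a* have squares and circles close together.

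Between libraries, collagen-rich nuclei in WT 3 dpa held more collagen RNA for their total than those labelled WT UI, but the pool labelled WT UI is thin. It held 20 nuclei, and its deepest one, in cluster 16 and with 4 collagen UMIs, gave 39.7% of its UMIs. Among 974 measured genes 16.3% were higher and 8.01% lower in WT 3 dpa, around a median log2 ratio of 0.06. A gene is measured here by its expected UMIs at the rate of both pools together, which the far larger WT 3 dpa pool sets, so a gene low in WT UI passes more easily than one low in WT 3 dpa, and the balance of higher and lower counts is not a result. The same holds for the counts within gene lists, and for mutant UI against WT UI. Fibrillar collagens were higher in 7 of 7, with a summed level of 6808 against 1744 CPM (log2 ratio 1.97, 1.66 to 2.29) in WT 3 dpa against WT UI. Without the deepest nucleus of each library the log2 ratio was 1.30 with 4 of 6 measured higher, and within cluster 8 alone 1.66 with 6 of 7 higher. The other barcodes differed the same way, with 1376 CPM of this list in WT 3 dpa and 233 in WT UI. The difference was therefore not particular to collagen-rich nuclei. With all collagen-rich nuclei kept, the log2 ratio was 2.40 (1.62 to 3.31) for *col1a2* and 1.55 (0.91 to 2.29) for *loxl3b*. Values of these genes without the deepest nuclei are not given here. As *fn1a* had 0 UMIs in WT UI, its log2 ratio in WT 3 dpa was 4.88 with the floor set at 3 UMIs in the pool. The exact upper limit of a count of 0 there, 75.7 CPM, lies above that floor, so 4.88 is not a strict bound. Assembly genes were higher in 7 of 10 measured, but in 2 of 6 without the deepest nuclei. Matrix glycoproteins were higher in 7 of 16 with 1 lower, but in 1 of 9 without them. Identity genes were higher in 3 of 11 with 2 lower. The epicardial *tbx18* and *aldh1a2* had log2 ratios of -0.77 (-1.43 to -0.02) and -1.33 (-1.87 to -0.74), lower in WT 3 dpa. Of the collagen-rich nuclei, 321 of 645 in WT 3 dpa and 13 of 20 in WT UI were in cluster 8. The part of nuclei outside cluster 8 in these ratios was not tested. For *tbx18* and *aldh1a2*, values between these libraries within cluster 8 or without the deepest nuclei are not given here. Among the genes named by rank, the glucagon receptor gene *gcgra* had 250.5 CPM in WT 3 dpa and 1231 in WT UI. The genes *glis1b* (log2 ratio 4.85, 2.37 to 10.16) and *ckba* (4.56, 2.07 to 9.86) each stood against 1 UMI in WT UI, and were measured only through their level in WT 3 dpa. Without the deepest nuclei *gcgra* gave -1.57, *glis1b* 4.13 and *ckba* 3.84.

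Set against the same pool labelled WT UI, collagen-rich nuclei in mutant UI also held more collagen RNA for their total. So did the other barcodes, with 1493 CPM of fibrillar collagens in mutant UI and 233 in WT UI. Of all barcodes, 9932 of 35484 in mutant UI and 8178 of 8309 in WT UI passed the filters. Against filtered barcodes only, collagen-rich nuclei had log2 ratios of 3.16 in mutant UI and 2.92 in WT UI, rather than 2.26 and 2.90. The difference was therefore not particular to collagen-rich nuclei, but its size in the other barcodes depends on the filters. The contrast of collagen-rich nuclei in mutant UI and WT UI shares the thin WT UI pool with the one before, so neither bears on the other. Summed identity genes, for example, had log2 ratios of 0.62 in mutant UI over WT UI and -0.01 in WT 3 dpa over WT UI. Without the deepest nucleus of each library these were 0.21 and -0.41. Among 1044 measured genes 27.2% were higher and 9.77% lower in mutant UI, around a median log2 ratio of 0.27, a shift against which the counts here are to be read. The larger mutant UI pool also sets which list genes are measured, so the list counts are a description. Fibrillar collagens were higher in 7 of 7, with 7149.6 against 1744 CPM (log2 ratio 2.04, 1.73 to 2.36) in mutant UI against WT UI, a log2 ratio of 1.38 with 3 of 6 higher without the deepest nucleus of each library, and 1.24 with 4 of 5 higher within cluster 8. Assembly genes were higher in 9 of 9 measured, and in 3 of 7 without the deepest nuclei. Identity genes were higher in 7 of 15 with 1 lower, and in 2 of 8 with 1 lower without those nuclei, and the cardiomyocyte list summed to 26428 CPM in mutant UI and 83202 in WT UI. The log2 ratio of that list was -1.65, and -0.91 without the deepest nuclei; between WT 3 dpa and WT UI it was -0.75, and -0.04 without them. Erythrocyte markers were higher in 4 of 4, with summed levels of 3902 CPM in mutant UI and 903 CPM in WT UI. The other barcodes differed the same way, with 12157 CPM of these markers in mutant UI and 919 in WT UI. In collagen-rich nuclei, coagulation factor gene *f8* was among the lowest, with 132 CPM in mutant UI and 1046 in WT UI (-2.99, -3.54 to -2.43).

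Taken over every nucleus of cluster 8, collagen-rich or not, the pools rested on no collagen threshold, and in every library but WT 3 dpa they held more nuclei than those of collagen-rich nuclei. Only the genes of the rule were left out of the clustering, and the matrix genes *fn1a* and *edil3a* are among those that lead cluster 8. How far matrix genes placed nuclei in the cluster was not tested. Fibrillar collagens summed to 10769.6 against 1944 CPM (log2 ratio 2.47, 2.35 to 2.59) in WT 3 dpa against WT UI. In the mutant pair they summed to 2115 against 6783 CPM (log2 ratio -1.68, -1.83 to -1.53) in mutant 3 dpa against mutant UI, the other direction. Identity genes gave, in the WT pair, 9929 against 9611 CPM (log2 ratio 0.05, -0.01 to 0.11), and in the mutant pair 7736 against 13057 CPM (log2 ratio -0.76, -0.84 to -0.67). Cardiomyocyte markers ran opposite to the collagens, with 25648 CPM in WT 3 dpa against 73662 in WT UI and 60766 CPM in mutant 3 dpa against 22618 in mutant UI. The part of that RNA in the collagen levels was not tested. The collagen-rich nuclei in mutant UI and WT 3 dpa, set side by side, had 7149.6 and 6808 CPM of fibrillar collagens (log2 ratio 0.07, 0.01 to 0.13) and 12071 and 7797 CPM of identity genes. For the collagens the order turned round in those of cluster 8 alone. These had 8411 CPM (8120 to 8710) in mutant UI and 11248 (11001 to 11499) in WT 3 dpa.

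Many collagen-rich nuclei carried cell cycle RNA, as did their neighbours in cluster 8. After thinning to 500 UMIs, at least 2 UMIs over the cell cycle list were found in 1 of 5 collagen-rich nuclei in mutant 3 dpa, 130 of 329 in mutant UI (39.5%, 34.2 to 45.0), 170 of 639 in WT 3 dpa (26.6%, 23.2 to 30.2) and 1 of 20 in WT UI. All other filtered barcodes gave 3.10%, 16.5%, 20.1% and 4.28%. Unthinned, the shares of collagen-rich nuclei in mutant UI and WT 3 dpa were 60.1% and 65.0%. Inside cluster 8 the thinned share was 44.2% (38.0 to 50.5) of collagen-rich nuclei and 40.1% (33.0 to 47.5) of those below the threshold in mutant UI, intervals that overlap. In WT 3 dpa it was 36.6% (31.3 to 42.1) of collagen-rich nuclei and 21.8% (13.2 to 32.6) of those below the threshold. These intervals overlap too, and overlap does not show that the shares are equal. Collagen-rich nuclei outside cluster 8 gave 22.5% in mutant UI and 16.6% in WT 3 dpa, beside 16.5% and 20.1% in the other filtered barcodes. Nuclei of cluster 8 below the threshold gave 2.84% in mutant 3 dpa and 3.06% in WT UI, the libraries where collagen-rich nuclei were rare. Summed levels of the cell cycle list were higher in the collagen-rich nuclei of cluster 8 than in those below the threshold. They were 4121 CPM (3919 to 4332) against 3109 (2883 to 3349) in mutant UI. In WT 3 dpa they were 3734 CPM (3592 to 3880) against 1799 (1544 to 2084).

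Cell cycle genes were higher over all other barcodes in 10 of 23 measured in mutant UI and 12 of 74 in WT 3 dpa, with 0 lower in either. The formin *diaph3*, which shapes the cleavage furrow, had 569 against 182 CPM in the library labelled mutant UI (log2 ratio 1.64, 1.46 to 1.82) and 347 against 180.4 CPM in that labelled WT 3 dpa (0.94, 0.80 to 1.08). The proliferation marker *mki67* gave 66.0 and 42.9 CPM in collagen-rich nuclei in mutant UI and WT 3 dpa, and log2 ratios of 1.32 in mutant UI and 0.68 in WT 3 dpa. Topoisomerase gene *top2a* gave 0.78 in mutant UI and 0.70 in WT 3 dpa. No cell cycle phase was assigned.

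**Figure D5:**
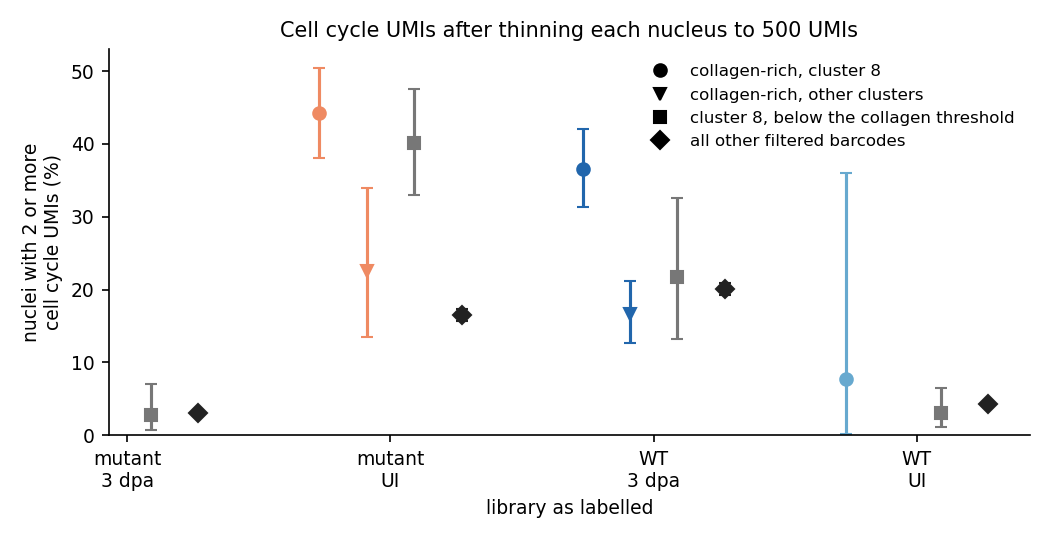
Share of nuclei (%) with at least 2 cell cycle UMIs after thinning to 500 UMIs, by library as labelled, for collagen-rich nuclei in cluster 8 (circles), collagen-rich nuclei in other clusters (triangles), cluster 8 nuclei below the collagen threshold (squares) and all other filtered barcodes (diamonds). Bars are exact 95% intervals; groups under 10 nuclei are not drawn. Circles and squares are near 40% in mutant UI and at 36.6% and 21.8% in WT 3 dpa, with intervals that overlap in both libraries. Overlap does not show that the shares are equal.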

How the data were processed

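Nuclei of frozen hearts were profiled with 10x 3 prime chemistry. The deposited files hold raw counts of UMIs by gene and barcode, which the authors made with cellranger 7.0.0 according to the headers; the submitters' processing notes also name R 4.2.0, Seurat 4.3.0 and build GRCz11. The annotation, intron handling and cell calling: not given in the sources used here. CPM was computed over 24740 nuclear gene symbols with the same ID and symbol in all tables. Barcodes were clustered without the rule genes by Leiden (scanpy 1.11.5, leidenalg 0.10.2, 2000 variable genes, 30 components, 15 neighbours, resolution 1, seed 0), with no batch correction. Doublets were scored with scrublet, whose own threshold called 0, 0, 0 and 2 barcodes and so failed. None were removed, and leaving out the highest 6% of scores (25 of 346 collagen-rich nuclei in mutant UI, 65 of 645 in WT 3 dpa) is an alternative. Ratios were tested on simulated data. Reads of overlapping or near-identical genes may be assigned otherwise in the gene tables of the mutant and WT libraries.

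The members and gene lists were chosen with earlier results of these data known. The nuclei below the collagen threshold were chosen as a comparison after values had been seen. Genes named were those of the lists, the 12 with the highest smallest ratio over other barcodes across the 4 libraries, and the 8 highest and 8 lowest in each contrast, at 10 or more expected UMIs in each pool. Other genes are said to be chosen after their values were seen. The 12 are not described, since the pool of 5 nuclei sets their order, nor are the contrasts with that pool gene by gene. No sequence was used here.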

Additional observations from a re-analysis of the deposited data

Results flagged for a closer look

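The share of collagen-rich nuclei was lower at 3 dpa than at UI by the labels of the mutant libraries, and higher by those of the WT libraries. Labelled 3 dpa over UI, the log2 ratio of the shares was -5.99 in the mutant pair (5 of 9140 and 346 of 9932 filtered barcodes) and 4.67 in the WT pair (645 of 10394 and 20 of 8178). With 1 matrix a group, the difference between the pairs was not tested. Genotype cannot be told apart from the gene table and the barcode set, and whether the labels of the mutant pair are right was not tested.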

How the results depend on the processing

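Of 26 summary results, 118 of 194 values under other settings stayed close to the value given (within its interval, or, for counts of genes, at a like number) and 76 moved, and 0 reversed. Shares, as log2 ratios: labelled WT 3 dpa over UI 4.67 became 5.74 with at least 6 collagen UMIs, 5.57 with at least 1000 UMIs a barcode and 3.40 within cluster 8; mutant over WT at UI 3.83 became 5.12, 4.64 and 3.09; within cluster 8 mutant 3 dpa over UI became -4.40 and mutant over WT at 3 dpa -4.71.

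Fibrillar collagens (log2 ratio of sums) in collagen-rich nuclei labelled WT 3 dpa over UI, 1.97, became 1.07 with at least 6 collagen UMIs, 1.17 with no excluded UMI, 1.29 without the highest doublet scores, 1.30 without the deepest member and 1.42 as a mean per nucleus. Mutant over WT at UI, 2.04, became 0.91, 1.17, 1.37, 1.38 and 1.59 in that order, and 1.24 within cluster 8. Mutant 3 dpa over UI, -0.93, became -1.57 with at least 3 collagen UMIs, -1.62 with no excluded UMI and -1.57 without the deepest member; mutant over WT at 3 dpa, -0.86, became -1.61 and -1.49 under the last pair of settings. Over all other barcodes, labelled mutant UI 2.26 became 3.16 against filtered barcodes, 2.46 with at least 6 collagen UMIs, 2.49 in cluster 8 and 2.48 centred on the median gene; WT 3 dpa 2.31 became 2.52, 2.74 and 3.03 under the first 3 of these; WT UI 2.90 became 4.23 with at least 6 and 3.93 in cluster 8; mutant 3 dpa 3.90 became 5.26 when centred.

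Counts of genes at 2-fold, labelled WT 3 dpa over UI, 159 higher and 78 lower, became 33 and 12 with at least 6 collagen UMIs, 44 and 9 with no excluded UMI, 53 and 15 without doublet scores, 81 and 20 in cluster 8, 76 and 23 without the deepest member, 361 and 170 at 5 expected UMIs and 50 and 30 at 20; with at least 3 collagen UMIs 266 were higher. For mutant over WT at UI, 284 higher and 102 lower, the counts under these settings were 60 and 10, 87 and 14, 119 and 23, 112 and 20, 148 and 32, 578 and 213, and 128 and 46, with 475 and 185 at 3 collagen UMIs and 162 lower when centred. Over all other barcodes, 855 lower labelled mutant UI became 525 when centred, and 383 lower labelled WT 3 dpa became 845 with at least 6 and 1222 in cluster 8. Cell cycle shares, labelled mutant UI 39.5%, became 64.4% at 1 UMI, 58.1% thinned to 1000 UMIs and 60.1% unthinned; labelled WT 3 dpa 26.6% became 56.7%, 48.1% and 65.0%, and 36.6% in cluster 8. The settings for cluster 8, the deepest member and combinations with them were added after the values were seen. Fewer genes are measured in smaller pools, but counts did not always fall with them. The 383 lower in WT 3 dpa became 845 and 1222 with smaller pools of collagen-rich nuclei. The causes of these changes were not tested.

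No paired analysis was possible because the barcodes carry no sample, and leaving out replicates was not run for the same reason. Depth limits the pools of 5 and 20 nuclei most.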
